A study of Mus musculus with 4 samples.

Results

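The genes followed here are 10 markers by which skeletal stem cells and the cells derived from them are sorted or recognised: Cd200, Thy1, Enpep, Eng, Mcam, Alcam, Ly6a, Nes, Cd34 and Ncam1. They were chosen by symbol among the probe sets that the array annotation assigns to exactly 1 gene. Of these 10, 9 had such a probe set, 1 each, and Ly6a had none. All 9 were bright enough to be tested, with the mean of each group above the filter set for dim genes, among 12708 genes tested of 22180 measured. Nes encodes nestin, an intermediate filament protein inside the cell, so it marks cells in tissue but is no surface antigen.

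The cells were skeletal stem cells of Mmp14-/- mice (Mmp14 knockout, 2 arrays) and of Mmp14+/+ mice (wild type, 2 arrays), taken from animals 4 to 6 weeks old. All cells were embedded in 3D collagen gel for 48 h before RNA was taken. Mmp14 encodes MT1-MMP, a membrane-anchored protease that cleaves collagen around the cell. The labels do not name the sex of the animals, the antigens used to isolate the cells or which part of Mmp14 was deleted. Nor do they say that the 2 arrays of a genotype stand for different mice or cultures, and p-values therefore reflect the scatter between these arrays, which may be technical.

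Skeletal stem cells give rise to bone, cartilage and the stroma of the marrow. In mice they are commonly isolated as cells that carry CD200 and the αV integrin and lack Thy1, the 6C3 antigen encoded by Enpep, and endoglin (Eng), while more committed stromal and bone-forming progenitors gain one or more of these 3. Mcam, Alcam, Ly6a and nestin come from other schemes for marrow stromal and perivascular progenitors, and Cd34 and Ncam1 are better known from blood, vessel and neural cells. The arrays measured transcripts and not the surface proteins that antibodies detect.

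Of the 9 measured markers, 3 rose in knockout cells (Enpep, Cd200 and Mcam), 1 fell (Ncam1) and 5 did not pass the test (Thy1, Eng, Alcam, Nes and Cd34). A gene was called at a limma adjusted p below 0.05 over all genes tested, and by this rule 11.3% of all tested genes were called, 6.2% as higher and 5.12% as lower in knockout. At least a 2-fold called change was found in 2 of the 9 markers and in 3.51% of all tested genes. The median difference, knockout minus wild type, was 0.09 log2 over the 9 markers and −0.0041 log2 over all tested genes. The 4 arrays did not overlap by group in 6 of the 9 markers, against 57.8% of all tested genes. In bulk RNA a lower signal from fewer cells of a type cannot be told apart from less RNA per cell.

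**Figure D1:**
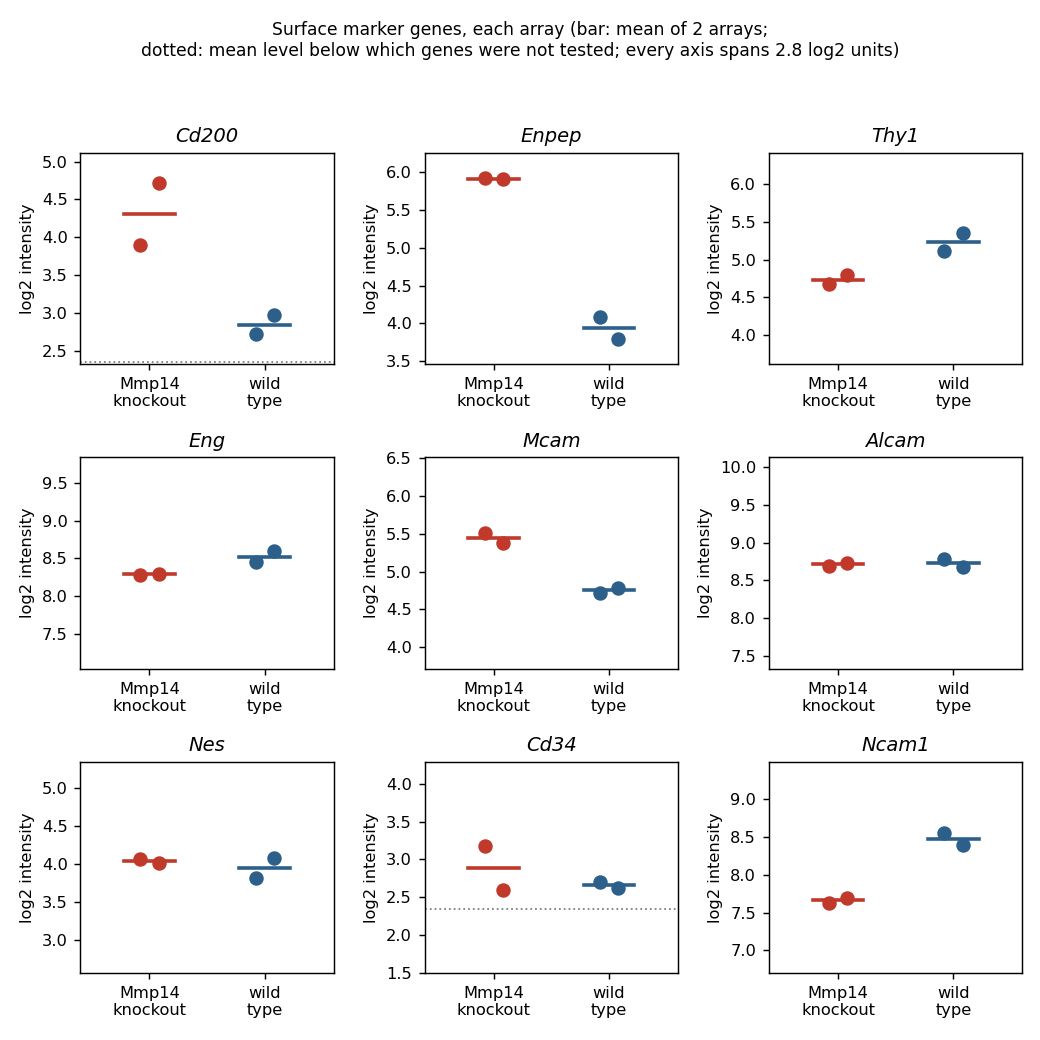
Log2 intensity of the 9 measured marker genes in each array, with Mmp14 knockout (red) left of wild type (blue), a point for each array, and a bar at the mean of 2 arrays. The knockout points of Enpep and Mcam lie close together above both wild-type points, those of Cd200 lie 0.82 log2 apart, and those of Ncam1 lie below wild type.

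The sequence before the start of the 3 genes that rose is shown first, because they moved in the same direction and their upstream sequences differ widely. RefSeq sequences on GRCm38.p6 were used for 7 of the 9 measured markers, all except Thy1 and Ncam1. Each line gives the 250 bases before the start, 5′ to 3′ on the strand of the gene. Capitals mark matches on either strand to 5 short motifs: the TATA box (TATAAA), the GC box (GGGCGG), the cAMP response element (TGACGTCA), the AP-1 site (TGANTCA) and the TCF/LEF core (CTTTGA).
Enpep (chr3:129332750-129332999, minus strand): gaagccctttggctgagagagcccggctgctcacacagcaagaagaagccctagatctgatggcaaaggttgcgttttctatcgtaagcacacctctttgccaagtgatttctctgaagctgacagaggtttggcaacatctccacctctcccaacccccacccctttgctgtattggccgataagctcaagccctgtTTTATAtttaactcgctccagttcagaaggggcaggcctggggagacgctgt
Mcam (chr9:44134408-44134657, plus strand): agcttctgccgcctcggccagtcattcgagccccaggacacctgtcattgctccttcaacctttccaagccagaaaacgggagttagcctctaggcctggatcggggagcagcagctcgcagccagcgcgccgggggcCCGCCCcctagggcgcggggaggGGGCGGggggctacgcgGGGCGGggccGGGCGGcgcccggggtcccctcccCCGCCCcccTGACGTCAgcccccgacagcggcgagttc
Cd200 (chr16:45409054-45409303, minus strand): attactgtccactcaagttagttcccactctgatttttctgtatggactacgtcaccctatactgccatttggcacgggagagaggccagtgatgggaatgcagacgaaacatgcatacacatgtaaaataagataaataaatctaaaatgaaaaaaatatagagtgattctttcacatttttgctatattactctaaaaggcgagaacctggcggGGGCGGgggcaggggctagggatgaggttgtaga

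The Enpep window held a single TATA box match, on the opposite strand and beginning 52 bases before the start, which 12.4% of all 32851 mouse windows of this length also held. The Mcam window held 5 GC box matches and a cAMP response element match beginning 29 bases before the start, motifs found in 32.7% and 1.55% of all windows. The Cd200 window held 1 GC box match. No capitalised motif overlapped another in these 3 windows. None of the 7 marker windows held the AP-1 letters (6.75% of all windows) or the TCF/LEF letters (13.8%), which says only that these letters were not in these windows. The G and C content was 73.6% for Mcam with 25 CpG sites, 52.4% for Enpep with 6 CpG sites and 42.4% for Cd200 with 6 CpG sites, against medians of 52.4% and 6 sites over all windows. Alcam, which was not called, had a window of 69.2% G and C with 22 CpG sites and 2 GC box matches. Nes, also not called, had 58.8% G and C with 15 CpG sites and 2 GC box matches. The windows of Eng and Cd34, not called either, had 4 and 6 CpG sites. Windows rich in CpG sites were thus found in a marker that rose and in markers that were not called.

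Cd200 is the antigen carried by the stem cell in the mouse sorting scheme. It encodes an immunoglobulin family glycoprotein that signals to an inhibitory receptor on myeloid cells. Its log2 intensity was 3.89 and 4.71 in knockout arrays, against 2.72 and 2.96 in wild-type arrays. Both knockout arrays were above both wild-type arrays, and the knockout arrays lay further apart (0.82) than the wild-type arrays (0.24). Cd200 rose by 1.46 log2 in knockout (SE 0.266, n = 2 per group, limma adjusted p = 0.0228), or 2.75-fold with a 95% interval of 1.75 to 4.31. The call was lost without wild type replicate 1 (limma adjusted p = 0.0739) or without wild type replicate 2 (0.0572), and the difference ranged from 1.05 to 1.87 log2 as single arrays were left out. The wild-type signal was close to the 2.34 log2 set for dim genes, and background signal at that level can shrink a fold change.

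Enpep, whose 6C3 antigen is absent from the sorted stem cell, showed the largest change of the 9. It encodes glutamyl aminopeptidase, the membrane enzyme that trims angiotensin II. Its log2 intensity was 5.92 and 5.91 in knockout arrays, against 4.09 and 3.79 in wild-type arrays. The knockout arrays were nearly equal and lay far above the wild-type arrays. Enpep rose by 1.98 log2 in knockout (SE 0.131, n = 2 per group, limma adjusted p = 0.00118), or 3.93-fold with a 95% interval of 3.15 to 4.91. By size of change it ranked 70 of the 12708 genes tested. It was called under all 13 alternatives tried, with adjusted p from 1.79e-05 to 0.032.

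The other 2 antigens absent from the sorted stem cell had differences of the opposite sign and were not called. Thy1 encodes a small immunoglobulin family protein tethered to the membrane by a lipid anchor, also called CD90. It measured 4.67 and 4.79 log2 in knockout arrays, against 5.11 and 5.36 log2 in wild-type arrays. Both knockout arrays were below both wild-type arrays. The difference was −0.50 log2 (95% interval −0.81 to −0.19, limma adjusted p = 0.0572), which missed the threshold. Thy1 was called lower under 3 of 13 alternatives, with adjusted p between 0.0156 and 0.25 over all of them.

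Eng encodes endoglin (CD105), a co-receptor for ligands of the TGF-beta family. It measured 8.28 and 8.29 log2 in knockout arrays, against 8.45 and 8.59 log2 in wild-type arrays. The groups did not overlap but lay close together. The difference was −0.23 log2 (95% interval −0.50 to 0.03, limma adjusted p = 0.227), so a fall of up to 0.50 log2 was within its interval. Whether Enpep differed from Thy1 or Eng in its response was not tested, since probe sets of different genes were not set against each other.

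**Figure D2:**
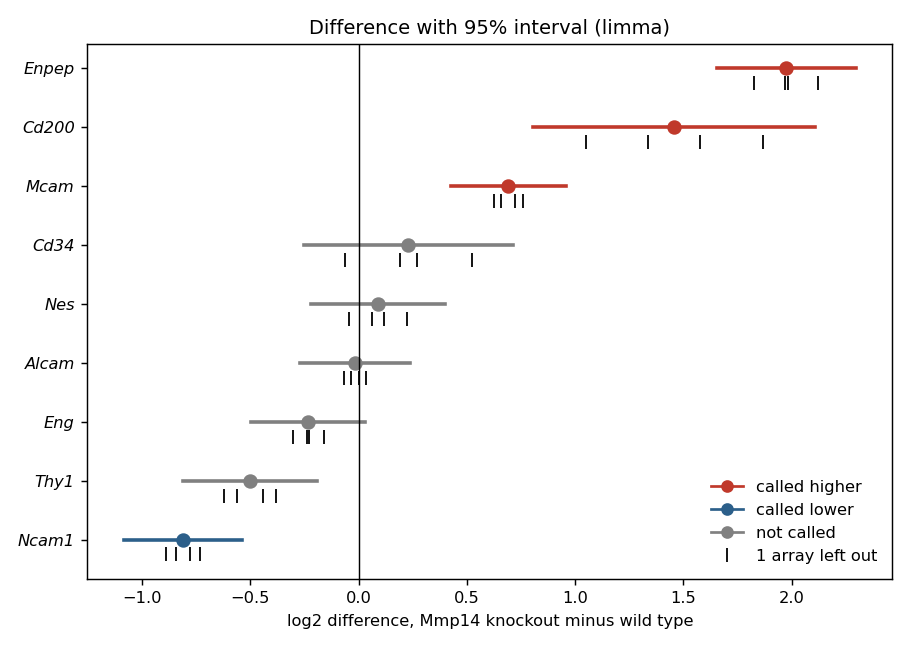
Log2 difference, knockout minus wild type, of each marker gene (point) with its 95% interval from limma (line), and the 4 values obtained with 1 array left out (black ticks). Enpep, Cd200 and Mcam lie above 0, Ncam1 lies below 0, and the ticks of Alcam, Nes and Cd34 fall on both sides of 0.

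Among the markers of stromal and perivascular progenitors, Mcam rose while Alcam and Nes were not called. Mcam encodes CD146, an immunoglobulin family adhesion molecule of marrow stromal progenitors, pericytes and endothelium. It measured 5.51 and 5.37 log2 in knockout arrays, against 4.72 and 4.78 log2 in wild-type arrays. The groups were well apart, with 0.13 log2 between the knockout arrays and 0.0677 log2 between the wild-type arrays. Mcam rose by 0.69 log2 in knockout (SE 0.108, n = 2 per group, limma adjusted p = 0.0142), or 1.61-fold with a 95% interval of 1.34 to 1.94. The call was lost without Mmp14 knockout replicate 1 (limma adjusted p = 0.0801).

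Mural and endothelial cells also carry Mcam, so their markers stand beside its rise. Of 10 pericyte and smooth muscle markers measured, 8 were tested, 0 rose and 2 fell, with 6 not called and a median difference of −0.17 log2. Calls over all tested genes were 6.2% higher and 5.12% lower. Rgs5, a regulator of G protein signalling in pericytes, fell by 1.07 log2 (limma adjusted p = 0.0102), and the actin-binding contractile gene Cnn1 fell by 0.73 (0.0137), though not without Mmp14 knockout replicate 2 (0.0579). The smooth muscle actin gene Acta2 had a difference of −0.14 log2 and its partner Tagln −0.20, both not called. Cspg4, a pericyte surface proteoglycan gene, had a difference of 0.29 log2 and Myh11, a smooth muscle myosin gene, 0.11, also not called. The summed linear signal of the list was 4037 to 4248 in knockout arrays and 4840 to 4929 in wild-type arrays. Most of this sum came from contractile genes: Acta2 (mean 11.4 log2 in knockout and 11.6 in wild type), Tagln (9.39 and 9.58) and Cnn1 (9.17 and 9.90). The next brightest was Cspg4 (6.37 and 6.08), so the sum says little about the pericyte genes of the list. Of 10 endothelial markers, 8 were too dim to test and 0 of the other 2 were called, with Flt1 at 0.46 log2 (limma adjusted p = 0.113) and Vwf at 0.09. Flt1 was called higher without wild type replicate 1 (0.0397). The summed linear signal of the endothelial list was 41.7 to 43.6 in knockout arrays and 39 to 39.9 in wild-type arrays, and its highest value on any array was 3.14 log2. The part of either cell type in the rise of Mcam was not tested.

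Alcam encodes CD166, an adhesion molecule of stromal progenitors that binds itself and the lymphocyte receptor Cd6. It measured 8.69 and 8.73 log2 in knockout arrays, against 8.78 and 8.68 log2 in wild-type arrays. The groups overlapped. The difference was −0.02 log2 with a 95% interval of −0.27 to 0.24 (limma adjusted p = 0.943), the narrowest interval of the 9 markers.

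Nes, the intermediate filament gene of perivascular stromal cells, measured 4.07 and 4.01 log2 in knockout arrays, against 3.82 and 4.08 log2 in wild-type arrays. The groups overlapped here too. The difference was 0.09 log2 with a 95% interval of −0.22 to 0.40 (limma adjusted p = 0.709). Vim, the abundant filament gene with which nestin assembles, had a difference of 0.05 log2 and was not called either.

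Of the lineage markers, Ncam1 fell and Cd34 was not called. Ncam1 encodes CD56, the neural cell adhesion molecule. It measured 7.63 and 7.70 log2 in knockout arrays, against 8.56 and 8.40 log2 in wild-type arrays. Both knockout arrays lay well below both wild-type arrays. Ncam1 fell by 0.81 log2 in knockout (SE 0.111, n = 2 per group, limma adjusted p = 0.00945). Knockout cells kept 56.9% of the wild-type signal. It was called whichever array was left out, and lost its call only when every probe set of the table was fitted together (limma adjusted p = 0.0909), among the 13 alternatives tried.

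Markers of Schwann and neural cells stand beside the fall of Ncam1. Of 8 measured, 4 were tested, 1 rose and 0 fell, where 6.2% of all tested genes were called higher and 5.12% lower. Map2, a microtubule-associated protein gene of neurons, rose by 1.52 log2 (limma adjusted p = 0.00329), while S100b (1.02), Mbp (0.45) and the tubulin gene Tubb3 (−0.28) were not called. S100b was called higher without Mmp14 knockout replicate 1 (0.0333) or wild type replicate 1 (0.0385), which made 2 that rose. Sox10, the defining factor of the Schwann lineage, was below the filter at 1.81 and 1.73 log2 in knockout arrays and 2.21 and 2.29 log2 in wild-type arrays. The summed linear signal of the list was 140 to 142 in knockout arrays and 70.4 to 81.5 in wild-type arrays. Most of this sum, and of its rise, came from Map2 (mean 6.10 log2 in knockout and 4.59 in wild type) and S100b (5.26 and 4.24). Gfap, Syp and Gap43 were below the filter, as Sox10 was. Of the 4 tested genes, Map2, S100b and Mbp had positive differences with no overlap between the groups. Tubb3 had a negative difference and its groups overlapped. Sox10, lower in knockout arrays, was too dim to be tested. The part of neural cells in these values was not tested.

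Cd34 encodes a sialomucin of blood progenitors, endothelium and some fibroblasts. It measured 3.18 and 2.60 log2 in knockout arrays, against 2.70 and 2.62 log2 in wild-type arrays. Knockout replicate 1 stood above the other 3 arrays and the groups overlapped. The difference was 0.23 log2 with a 95% interval of −0.25 to 0.71 (limma adjusted p = 0.513). Its level was near the filter for dim genes, so these arrays say little about whether Cd34 changed.

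**Figure D3:**
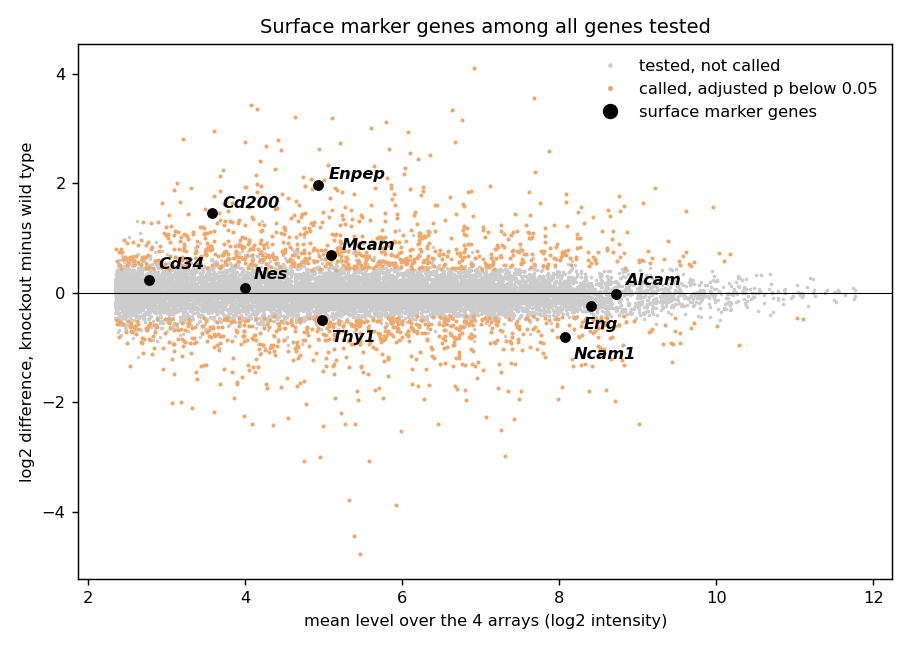
Log2 difference, knockout minus wild type, against the mean level over the 4 arrays (log2 intensity) for all 12708 genes tested, with called genes in orange and the 9 marker genes in black. Enpep and Cd200 lie among the called genes at low to middle levels, Alcam and Eng lie near 0 at high levels, and Ncam1 lies below 0.

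On the chromosomes, Thy1, Mcam and Ncam1 share chromosome 9, Enpep and Nes chromosome 3, and Cd200 and Alcam chromosome 16. Thy1 and Mcam are close neighbours, with 4 protein-coding genes between them in RefSeq: Usp2, C1qtnf5, Mfrp and Rnf26. Mcam rose and Thy1 had a negative difference, and of the 4 genes between them Usp2 was not called (−0.56 log2, limma adjusted p = 0.148), Rnf26 fell by 0.53 log2 (0.0413), and the other 2 were not tested. The call of Rnf26 was lost when either knockout array (0.172 and 0.119) or wild type replicate 2 (0.116) was left out. Of the 20 genes that flank the 10 markers, 13 were tested, 0 rose, 2 fell and 11 were not called. Over all tested genes, 6.2% were called higher and 5.12% lower. Elovl6 beside Enpep was among the flanking genes not called, and the genes beside Cd200 were not tested. The other flanking gene that fell was Plxna2 beside Cd34 (−1.02 log2, limma adjusted p = 0.0072).

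Other antigens used to sort skeletal stem and stromal cells moved in both directions. Of 30 measured, 28 were tested, 8 rose, 3 fell and 17 were not called, with a median difference of 0.19 log2. Among all tested genes, 6.2% were called higher and 5.12% lower. Without Mmp14 knockout replicate 1, 4 rose and 1 fell, since Itga6, Lrig1, Cdh2 and Cdh11 lost their calls (adjusted p = 0.0866, 0.0728, 0.0548 and 0.0592). Itga6 was also not called without knockout replicate 2 (0.0905). Pdpn and Cd44, which fell with Lepr, lost their calls when any 1 array was left out (0.0659 to 0.132 for Pdpn, 0.0709 to 0.185 for Cd44). The largest called changes were in Lepr, the leptin receptor gene of marrow stroma (−2.26 log2), Pdgfra, a growth factor receptor gene of mesenchymal progenitors (1.77), Vcam1, an adhesion molecule gene (1.65), and Mme, the gene of the membrane metallopeptidase CD10 (1.49). Like Enpep, Mme encodes a peptidase at the cell surface. Itgav, the αV integrin gene that pairs with CD200 in the stem cell sort, measured 9.54 and 9.20 log2 in knockout arrays, against 8.77 and 8.80 log2 in wild-type arrays. Its difference of 0.58 log2 missed the threshold (limma adjusted p = 0.0527), although the groups did not overlap. It was called higher under 4 of 13 alternatives, among them leaving out Mmp14 knockout replicate 2 (0.75 log2, adjusted p = 0.0366), and the mean of its probe sets gave 0.30 log2 (0.151).

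**Figure D4:**
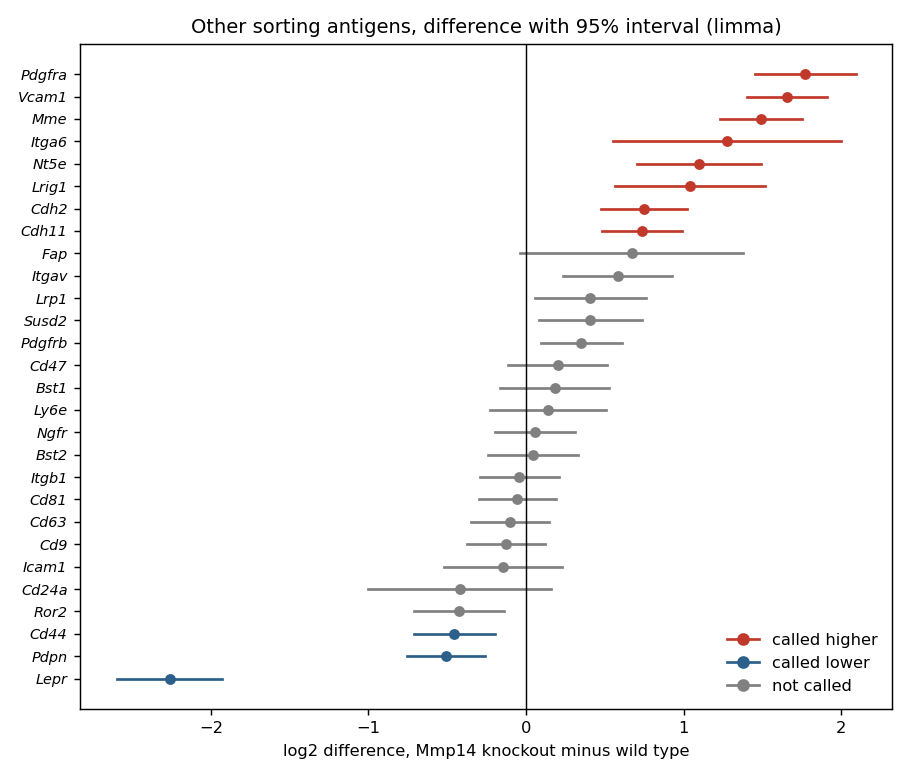
Log2 difference, knockout minus wild type, with 95% interval from limma, for the 28 tested antigens of the list of other sorting antigens. Pdgfra, Vcam1 and Mme lie at the top among 8 that rose, and Lepr lies at −2.26, apart from Cd44 and Pdpn, whose calls were lost when any 1 array was left out.

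Relatives, receptors and partners of the 10 markers were counted as a list, to be read beside the 6.2% of all tested genes called higher and 5.12% called lower. Of 36 measured, 21 were tested, 4 rose, 0 fell and 17 were not called, with a median difference of 0.08 log2, and 2 rose without Mmp14 knockout replicate 1. L1cam, an adhesion molecule gene whose protein interacts with NCAM, rose by 1.84 log2 (limma adjusted p = 0.00104) where Ncam1 fell. It measured 6.23 and 6.06 log2 in knockout arrays, against 4.24 and 4.37 log2 in wild-type arrays. Itgb3, an integrin subunit gene whose product binds Thy1 as part of the αVβ3 integrin, rose by 1.34 log2 (0.00172). Acvrl1, the receptor gene that works with endoglin, rose by 0.70 log2 (0.0129), though not without Mmp14 knockout replicate 1 (0.0737), and Tgfbr3, the gene of the related co-receptor betaglycan, rose by 0.57 log2 (0.0347) but lost its call when any 1 array was left out (0.0597 to 0.172). Cd200r1, the receptor gene for CD200, was below the filter for dim genes in all arrays.

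Mmp14, the targeted gene, was lower in both arrays labelled knockout, and markers of the labelled cell type were present. Mmp14 measured 5.77 and 5.84 log2 in knockout arrays, against 8.77 and 8.83 log2 in wild-type arrays, and fell by 2.99 log2 in knockout (limma adjusted p = 0.000278). Of 14 skeletal stromal markers measured, 13 were bright enough to test, with Prrx1, a limb mesenchyme factor, at 10.1 to 10.2 log2 on every array. Of these 13, 4 rose and 3 fell, where 6.2% of all tested genes were called higher and 5.12% lower. The largest called changes were in the bone-forming factor gene Sp7 (−3.08 log2), the cartilage factor gene Sox9 (1.92), the chemokine gene Cxcl12 (1.81) and Pdgfra. Of 9 leukocyte markers, 4 were below the filter, including the pan-leukocyte gene Ptprc at 1.51 to 1.86 log2, and 0 of the other 5 were called, with Cd68 the brightest (−0.12 log2). The summed linear signal of the leukocyte list was 59.6 to 67.1 in knockout arrays and 65.6 to 74.6 in wild-type arrays. Of 3 erythroid markers, 1 was tested and not called, and of 8 skeletal muscle markers 4 were tested and 1 rose, the satellite cell gene Pax7 (1.31 log2). Acta1, Ckm and Des were tested and not called, and Myod1, Myog, Myf5 and Myh3 were below the filter. Replicate arrays correlated at 0.994 in knockout and 0.992 in wild type over the tested genes, against 0.970 to 0.975 between groups. Of 4 sex-linked genes examined, 2 were called. Xist, expressed from the inactive X chromosome, rose by 0.73 log2 (limma adjusted p = 0.0155), though not without Mmp14 knockout replicate 1 (0.0801). The Y-linked Eif2s3y fell by 0.69 log2 (limma adjusted p = 0.0474), a call lost when either knockout array (0.176 and 0.0648) or wild type replicate 1 (0.107) was left out. The Y-linked Kdm5d (−0.42) and Uty (−0.25) were not called. Xist measured 9.30 and 9.09 log2 in knockout arrays, against 8.45 and 8.48 log2 in wild-type arrays. Over the 4 arrays, Eif2s3y lay at 5.19 to 6.18 log2, Kdm5d at 3.84 to 4.45 and Uty at 3.98 to 4.64. Xist and these Y-linked genes were thus all above the filter for dim genes on every array of both genotypes. The part of sex in the marker values was not tested.

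**Figure D5:**
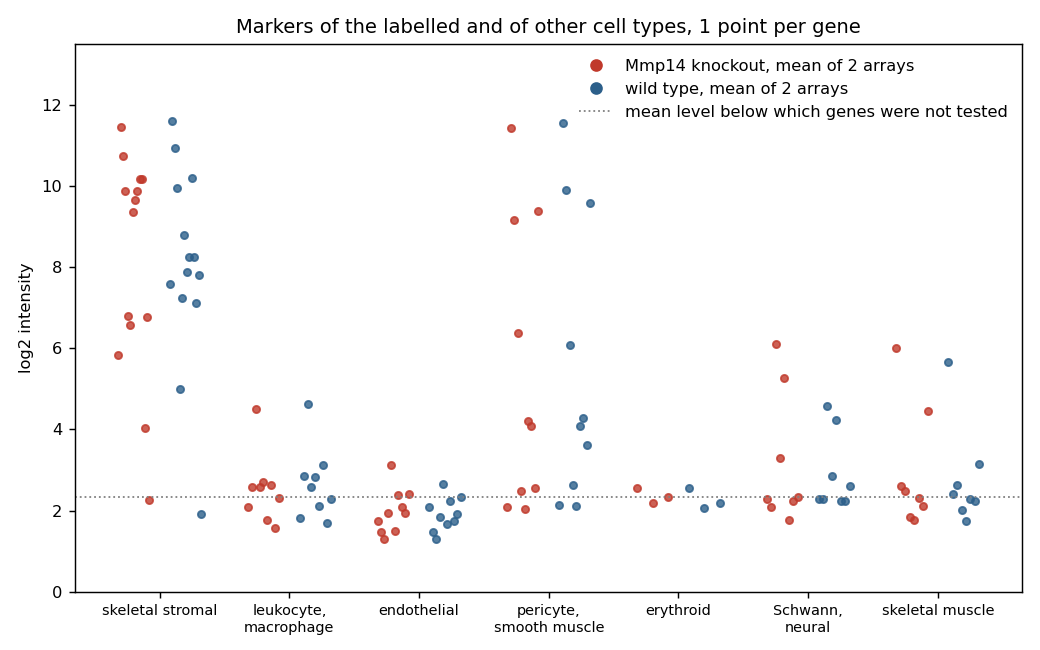
Mean log2 intensity of each measured marker gene of the labelled and other cell types, knockout (red) left of wild type (blue). Most skeletal stromal markers lie well above the dotted filter level, the endothelial and erythroid markers lie near or below it, and the bright pericyte and smooth muscle markers are contractile genes.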

How the data were processed

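Expression was measured on Affymetrix arrays, per the series design. Per the labels' protocols, 10 ng of total RNA was amplified with a Nugen whole-transcriptome kit. The authors deposited log2 intensities for 41345 probe sets, with a value for each array. Per the submitters' processing notes, limma and oligo were used, and how the arrays were normalized is not given in the sources used here. That the values are log2 was inferred from their range (0.43 to 12.2, array medians 2.32 to 2.37). Depth does not apply to arrays, and detection calls were not used here, so the number of arrays limits the precision.

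Probe sets with exactly 1 symbol (23521) were kept, and each gene took its brightest probe set by mean. A gene was tested where its mean reached 2.34 log2, the median over all probe sets. The groups were compared with limma 3.58.1 under R 4.3.3, by lmFit and eBayes (two-sided, no block, 2 residual degrees of freedom), with Benjamini and Hochberg adjustment over the whole set. Simulated data served to check this fit. An exact permutation test of 2 against 2 arrays cannot go below p = 0.333 and was not used.

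The markers, gene lists and motifs were chosen with earlier results of these data known. Named were Mmp14, all markers and up to 4 tested genes of each list, called genes first by size of change, otherwise by level. Itgav, Itga6, Lrig1, Cdh2, Cdh11, Pdpn, Cd44, Cspg4, Myh11, Prrx1, Ptprc, Sox10, Vim, Cd200r1, Xist, Eif2s3y, Kdm5d, Uty and the chromosomal neighbours were named outside that rule, after their values were seen. The same holds for Gfap, Syp, Gap43, Myod1, Myog, Myf5 and Myh3. Alternatives covered 2 other filters, the replicate block, quantile normalization, median centring, trend and robust eBayes, array weights, averaging probe sets within a gene, every probe set in 1 fit, and leaving out each array. Gene order and start positions came from RefSeq (GRCm38.p6). No gene coordinates are given for probe sets, because the array's own build is not given.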

Additional observations from a re-analysis of the deposited data

How the results depend on the processing

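Among the 13 alternatives tried, Enpep kept its direction and call in all, Ncam1 in 12, Mcam in 11 of 13 and Cd200 in 9 of 12. Fitting every probe set together, which tests more features, left 1 marker called higher (Enpep) and 0 called lower, with limma adjusted p = 0.157 for Cd200, 0.11 for Mcam and 0.0909 for Ncam1, and with 113 genes higher and 75 lower over all genes, against 788 and 651 by the fit reported here. At an unadjusted limma p below 0.05, 5 of the 9 markers passed the fit reported here, as did 3500 of all 12708 genes tested. Thy1 joined Ncam1, making 2 markers called lower, under the stricter filter (adjusted p = 0.0156), array median centring (0.0456) and trend and robust eBayes (0.0407). The stricter filter tested 6 of the markers and left out Cd200, Nes and Cd34. Over all genes, the stricter filter called 835 lower of 7583 tested, array median centring 705 of 12708, and trend and robust eBayes 1027 of 12708. The fit reported here called 651 of 12708 lower. Leaving out 1 array at a time gave 394 to 672 genes called higher and 293 to 459 called lower, with 2 to 3 markers called higher and 1 called lower each time. The lone array of a group was then assumed to vary like the other group. Signs turned only in markers that were not called: Alcam was at 0.0284 log2 with quantile normalization and ran from −0.0688 to 0.0343 as single arrays were left out, above 0 without Mmp14 knockout replicate 1 or wild type replicate 1. Nes ran from −0.0454 (without wild type replicate 1) to 0.221, and Cd34 from −0.0641 (without Mmp14 knockout replicate 1) to 0.522. The cause of these changes was not tested.

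Arrays with the same replicate number were not fitted as pairs, because their deviations from the group means correlated at −0.04 over the tested genes. With the replicate block, 606 genes were called higher and 451 lower, and the same 3 and 1 markers were called. Among the other sorting antigens, 7 rose and 1 fell with the block, and single arrays left out gave 4 to 9 that rose and 1 to 2 that fell.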

Other observations

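Ly6a, which encodes the antigen Sca-1, had no probe set under its own symbol. Other genes of the Ly6 family had 20 probe sets under 19 symbols, of which 6 reached the mean level required for testing. The closest by name, Ly6a2, measured 2.83 and 2.47 log2 in knockout arrays, against 2.23 and 2.22 log2 in wild-type arrays, and Ly6e, the brightest, measured 7.96 and 8.35 log2 in knockout arrays, against 7.97 and 8.06 log2 in wild-type arrays. Members of this family are similar in sequence, and neither value is a measure of Ly6a.

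A pair of probe sets named a marker together with another gene and were not used above. The one shared by Ncam1 and Gm11149 measured 2.48 and 2.59 log2 in knockout arrays, against 2.71 and 2.92 log2 in wild-type arrays, the same direction as the probe set of Ncam1 alone, with a difference of −0.28 log2 (limma adjusted p = 0.482 with every probe set fitted). The one shared by Cd34 and Gm16897 measured 1.54 and 1.49 log2 in knockout arrays, against 1.74 and 1.59 log2 in wild-type arrays, where the probe set of Cd34 alone had a positive difference. Both were dim.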
